A study of Mus musculus with 32 samples.

Results

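The 7 genes described here, Jaml, Hhipl1, Tmem63c, Dnah12, Tns1, Sult1a1 and Fzd4, were selected on their counts in these libraries: they were chosen by symbol as genes near absent without dexamethasone and strongly raised with it, alone or together with LPS. They are 7 of the 56953 genes in the count table, and each symbol matched 1 row. The cells were mouse bone marrow-derived macrophages, grown from the marrow of femur and tibia of mice aged 8 to 12 weeks in medium with L929 supernatant as the source of M-CSF, the growth factor that turns marrow progenitors into macrophages. The genotypes compared were wild type (WT, Irg1+/+) and knockout (KO, Irg1-/-) of Acod1, formerly Irg1. Each genotype was left as control or was treated for 24 h with dexamethasone at 100 nM, with LPS at 100 ng (the labels used here give no volume), or with both, which made 8 groups of 4 libraries. The labels also name C57BL/6J animals and do not say which wild-type mice gave which libraries, whether the replicates came from separate mice, or which part of Acod1 was deleted. The p-values therefore measure the spread between these libraries, which may be technical.

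Dexamethasone is a synthetic glucocorticoid that binds the glucocorticoid receptor, a transcription factor that acts at response elements in DNA and by contact with other factors. LPS, a component of the bacterial outer membrane, acts through the receptor TLR4 and raises inflammatory genes by way of NF-kappaB and AP-1. Acod1 is the enzyme that makes itaconate from cis-aconitate in macrophages stimulated with LPS, and glucocorticoids are used clinically to damp the macrophage response to such stimuli. The 7 genes share no pathway. Jaml encodes an adhesion molecule of the immunoglobulin superfamily whose ligand is Cxadr, and Tns1 encodes tensin 1, which links integrins to actin. Fzd4 encodes a frizzled receptor for Wnt ligands and norrin, and Hhipl1 encodes a relative of the hedgehog-interacting protein. Tmem63c belongs to a family of membrane proteins that are related to osmosensitive cation channels, Dnah12 encodes a heavy chain of the axonemal dynein that moves cilia, and Sult1a1 encodes a sulfotransferase that conjugates phenols with sulfate from the donor PAPS.

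The libraries held 17559079 to 25049200 counts assigned to genes. A list of 10 macrophage markers, with Lyz2 the highest, summed to between 17557 and 31576 counts per 1000000 counts of the library (CPM) in all libraries, so the labelled cell type carried its markers throughout. Acod1 transcripts were counted in the knockout too, at 4995 ± 133 CPM with LPS against 6483 ± 249 in wild-type cells (SD, n = 4 each) and at 3933 ± 195 against 2738 ± 34.8 CPM with dexamethasone and LPS. These counts cover all exons, so they do not check the deletion. The lane fields in the header of the count table place all WT libraries in lane 3, all KO libraries with LPS in lane 2, and the KO libraries without LPS in lane 3 apart from dexamethasone replicate 4 (lane 2) and control replicate 1 (merged). Genotype and lane therefore cannot be told apart in the groups with LPS except through that single dexamethasone library.

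Levels were computed as CPM, with library totals scaled by the TMM method. Of the 7 genes, 5 fitted the description of near absence in every group without dexamethasone: the highest group mean without the drug was 0.0261 CPM for Hhipl1, 0.0446 for Tmem63c, 0.119 for Jaml, 0.127 for Dnah12 and 0.486 for Fzd4. Tns1 and Sult1a1 did not. In untreated WT cells Tns1 stood at 166 ± 7.14 CPM and Sult1a1 at 9.18 ± 0.116 CPM (SD, n = 4 each), and their lowest WT level was that with LPS alone, at 2.18 ± 0.551 and 0.107 ± 0.0442 CPM. Only Sult1a1 was near absent there; Tns1 was above 1 CPM in every group. For such low groups a sum of 3 counts over the 4 libraries corresponds to between 0.0327 and 0.0402 CPM, and a level of 0 counts is compatible with a level up to that limit (counting error only).

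**Figure D1:**
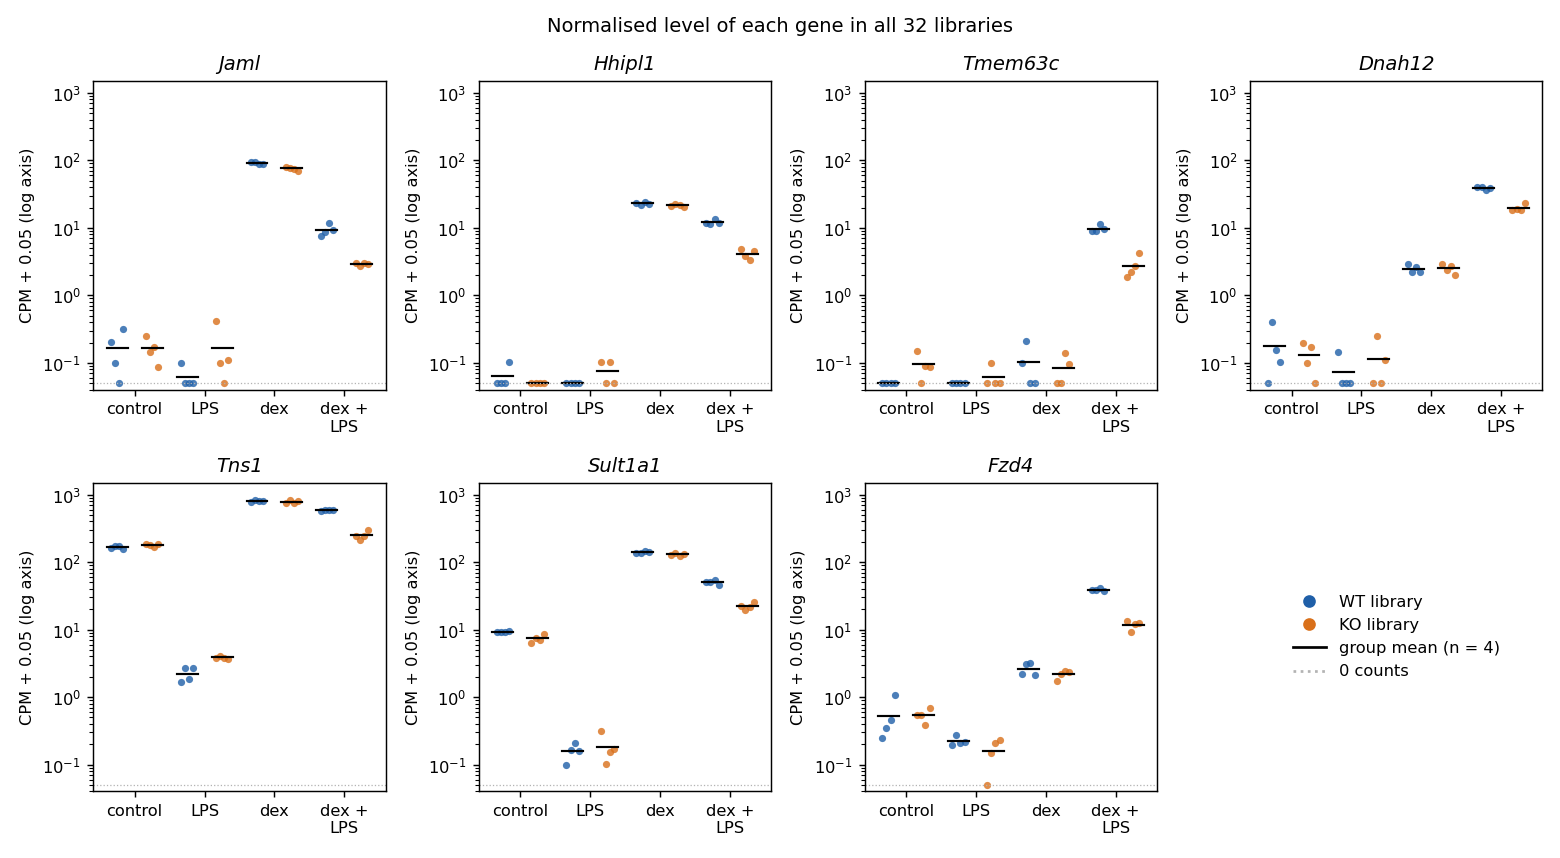
Level of each of the 7 genes in every library, as CPM + 0.05 on a log axis, by treatment, with WT in blue and KO in orange, 1 point per library and a bar at the group mean (n = 4); the dotted line marks 0 counts. Tns1 and Sult1a1 stand above the other 5 in untreated cells, and all 7 are far higher with dexamethasone and LPS together than with LPS alone.

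Jaml lies on chromosome 9, and its deposited coordinates (chr9:44990481-45019832, plus strand, GENCODE vM32) cover 3108 exonic bases in 13 merged exons. In untreated WT cells it was counted 9 times over 4 libraries, at 0.15, 0.0501, 0 and 0.267 CPM. With dexamethasone it stood at 94.8, 94.4, 88.3 and 89.8 CPM, a mean of 91.8 ± 3.27 (SD, n = 4). That is 798 times the control level, and no other gene of the 7 went from under 1 CPM to so high a level with dexamethasone alone. With LPS alone 1 count was found in WT replicate 1, at 0.0487 CPM, and 0 in the other 3 libraries. With both agents the values were 7.48, 8.77, 11.7 and 9.15 CPM. The lowest of these lies far above the highest library without dexamethasone in either genotype, 0.365 CPM in KO LPS replicate 1.

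Hhipl1 (chr12:108272529-108297128, plus strand, 5601 exonic bases in 10 merged exons) was at 0 in every untreated library except WT control replicate 4, where a single count gave 0.0534 CPM. Dexamethasone alone gave 23.3, 21.7, 24.0 and 22.7 CPM in WT, and 1785 times the control level with a counting interval of 320 to 70547 that the single control count makes wide. Both agents together gave 11.6, 11.5, 13.3 and 11.9 CPM, at least 304-fold above LPS alone, where WT had 0 counts. Jaml and Hhipl1 thus had the same order in WT cells, highest with dexamethasone alone and lower when LPS was added. A stretch of 179 bases of the Hhipl1 exons overlaps 4930478K11Rik, which lies on the opposite strand. No source used here states whether the counting used strand, and reads from the overlap could not be assigned to 1 of the genes. That neighbour had 115 counts over all libraries against 5141 for Hhipl1.

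Tmem63c (chr12:87068114-87136817, plus strand, 4089 exonic bases in 29 merged exons) was the only gene of the 7 that stayed at trace with dexamethasone alone. Its WT values with the drug were 0.0504, 0.16, 0 and 0 CPM, 5 counts in all against 0 in the controls. With dexamethasone and LPS together it stood at 8.84, 8.95, 11.3 and 9.64 CPM, from 175, 194, 209 and 197 counts, and LPS alone gave 0 counts in WT. The level with both agents was at least 243-fold above LPS alone, and neither agent by itself gave more than 0.16 CPM in any WT library.

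Dnah12 (chr14:26414429-26613660, plus strand, 12009 exonic bases in 74 merged exons) and Fzd4 (chr7:89053563-89062342, plus strand, 6720 exonic bases in 2 merged exons) stood higher with dexamethasone alone than in controls, and higher again with both agents. In WT the level with dexamethasone alone was 18.8 times the control level for Dnah12 and 5.47 times for Fzd4. Dnah12 stood at 2.87, 2.16, 2.55 and 2.14 CPM with dexamethasone in WT and at 40.7, 40.2, 36.7 and 39.6 CPM with both agents. Fzd4 stood at 2.12, 3.00, 3.10 and 2.10 CPM and at 38.3, 38.5, 41.0 and 36.9 CPM in the same groups. The libraries of these groups do not overlap for either gene. Against LPS alone the WT level with both agents was 1487 times as high for Dnah12 (counting interval 411 to 12285, from 2 counts with LPS) and 224 times as high for Fzd4.

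Tns1 (chr1:73949390-74163608, minus strand, 16465 exonic bases in 44 merged exons) had the highest level of the 7 in every group. Its WT values were 161, 172, 172 and 158 CPM in controls, 786, 842, 812 and 817 with dexamethasone, 1.61, 2.67, 1.82 and 2.64 with LPS, and 578, 587, 600.0 and 587 with both. Sult1a1 (chr7:126272037-126275604, minus strand, 1507 exonic bases in 7 merged exons) stood at 9.08, 9.17, 9.14 and 9.35 CPM in WT controls, at 136, 136, 146 and 139.8 with dexamethasone, at 0.0487, 0.114, 0.156 and 0.110 with LPS, and at 50.7, 50.3, 54.2 and 46.3 with both. For this pair the fold rise depends on the comparison group: Tns1 with dexamethasone was 4.92 times its control and 272 times its level with LPS when LPS was present throughout, and Sult1a1 was 15.2 and 475 times. A 61-base stretch of the Sult1a1 exons is shared with Sgf29 (6018 counts over all libraries against 30503), and 397 bases of the Jaml exons are shared with Gm10684 (28 counts against 15470).

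Per kilobase of exon, the order of the WT levels with dexamethasone alone was Sult1a1 at 92.6 CPM per kb, Tns1 at 49.5, Jaml at 29.5, Hhipl1 at 4.09, Fzd4 at 0.384, Dnah12 at 0.203 and Tmem63c at 0.0129. With both agents Tns1, at 35.7 ± 0.548 CPM per kb, and Sult1a1, at 33.4 ± 2.13, overlapped between libraries, followed by Fzd4 at 5.75, Dnah12 at 3.27, Jaml at 2.98, Tmem63c at 2.37 and Hhipl1 at 2.16. From Dnah12 down, each overlapped its neighbour in this order. The long Dnah12 gene therefore ranks lower per length than its CPM shows.

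In the knockout cells the same genes were highest with dexamethasone alone (Jaml, Hhipl1, Tns1 and Sult1a1) or with both agents (Tmem63c, Dnah12 and Fzd4). With dexamethasone alone the KO level was 696 times the KO control for Jaml, at least 661-fold above it for Hhipl1, 32.2 times for Dnah12, 17.6 times for Sult1a1, 4.37 times for Tns1 and 4.36 times for Fzd4, while Tmem63c had 3 counts against 4. With both agents, against LPS alone, Dnah12 was 295 times as high, Sult1a1 165 times, Fzd4 109 times, Tns1 65.5 times and Jaml 23.8 times. These contrasts are the ones that the genes were chosen on, and they are given without a test. In WT, 49.4% of the 14427 genes tested differed between dexamethasone and control (edgeR adjusted p under 0.05), 21.2% higher and 28.2% lower, and 69.2% differed between both agents and LPS alone, 34.6% higher and 34.5% lower. The shares in KO cells were 48.5% and 38.1%.

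The 250 bases before the transcription start are shown for 4 of the genes, because they were raised together and response elements for the receptor are commonly sought near the start. The sequences come from RefSeq on GRCm38.p6, run 5′ to 3′ on the gene's own strand and end at the base before the start. Capitals mark AGAACA or its reverse complement TGTTCT, the hexamer that makes up each side of the palindromic glucocorticoid response element. They lie at chr7:126676419-126676668 (minus strand) for Sult1a1, chr7:89404116-89404365 (plus) for Fzd4, chr9:45078933-45079182 (plus) for Jaml and chr14:26691304-26691553 (plus) for Dnah12.
Sult1a1: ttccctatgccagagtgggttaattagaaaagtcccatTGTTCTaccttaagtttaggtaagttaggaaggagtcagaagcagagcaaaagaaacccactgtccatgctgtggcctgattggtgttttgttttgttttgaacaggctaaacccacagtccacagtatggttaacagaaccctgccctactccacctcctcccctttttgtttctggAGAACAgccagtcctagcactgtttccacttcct
Fzd4: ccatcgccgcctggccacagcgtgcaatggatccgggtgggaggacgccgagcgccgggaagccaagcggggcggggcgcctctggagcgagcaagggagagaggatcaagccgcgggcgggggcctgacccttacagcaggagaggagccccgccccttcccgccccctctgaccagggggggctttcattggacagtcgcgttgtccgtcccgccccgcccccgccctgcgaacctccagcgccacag
Jaml: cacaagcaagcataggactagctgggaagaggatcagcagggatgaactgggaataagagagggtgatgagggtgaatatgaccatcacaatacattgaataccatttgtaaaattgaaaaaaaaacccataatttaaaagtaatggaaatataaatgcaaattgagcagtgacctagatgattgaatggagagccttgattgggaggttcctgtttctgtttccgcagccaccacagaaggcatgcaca
Dnah12: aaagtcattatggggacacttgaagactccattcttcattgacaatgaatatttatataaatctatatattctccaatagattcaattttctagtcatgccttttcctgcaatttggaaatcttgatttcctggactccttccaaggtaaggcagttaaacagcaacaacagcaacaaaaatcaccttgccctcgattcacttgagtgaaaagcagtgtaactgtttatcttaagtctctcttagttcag

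The Sult1a1 sequence holds the hexamer at positions -212 (reverse strand) and -34, and the others shown here hold none before the start. Windows of 300 bases (250 before and 50 after the start) were searched on both strands for all 7 genes, with 8 windows because Tmem63c has 2 starts. The full palindrome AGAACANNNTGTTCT was in 0 of the 8, against 0.00913% of all 32851 such windows, and the looser GNACANNNTGTNC, of which the full palindrome is a special case, was in 0 against 0.475%. The hexamer AGAACA was in the windows of Sult1a1 and of Fzd4 (at position 16 after the start), against 19% of all windows. An AP-1 motif, TGANTCA, was in 0 of the 8 against 7.81%, and the PU.1 motif GAGGAAGT was found in Sult1a1 at position -7 against 3.2%. A match is a run of letters, and no binding was measured here. The windows differed widely in GC content, from 38.3% for Dnah12 and 42.3% for Jaml to 72.7% for Fzd4 and 75.7% for Tns1, with a median of 52.7% over all windows.

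When LPS was added to dexamethasone, Jaml, Hhipl1, Sult1a1 and Tns1 stood lower and Tmem63c, Dnah12 and Fzd4 higher than with dexamethasone alone, in WT and in KO cells. The choice of the genes used their levels in both groups with the drug, and Tmem63c, Dnah12 and Fzd4 reach 5 CPM only with both agents, so these differences are given as a description, with no test. Over all genes 73.3% differed in this comparison in WT (35.5% higher and 37.8% lower) and 75.9% in KO (38.5% higher and 37.4% lower), and nothing is read from these shares about the 7 genes.

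Among the genes that stood lower, Jaml in WT was at 10.1% of its level with dexamethasone alone (log2 difference -3.31 ± 0.09 SE). Sult1a1 was at 36.1% (-1.47 ± 0.05), Hhipl1 at 52.7% (-0.92 ± 0.09) and Tns1 at 72.2% (-0.47 ± 0.05). The libraries with both agents lay below every library with dexamethasone alone for each of these genes. The share of all genes without such overlap was not counted. In KO cells Jaml was at 3.79%, Sult1a1 at 17.04%, Hhipl1 at 19.04% and Tns1 at 31.97% of the level with dexamethasone alone. The difference between the genotypes in these shares was not tested, and the KO libraries with both agents were in lane 2 while 3 of the 4 with dexamethasone alone were in lane 3.

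Among the genes that stood higher, Tmem63c went from 5 counts to 775 in WT, a log2 difference of 7.26 ± 0.38. Dnah12 differed by 4.02 ± 0.14 and Fzd4 by 3.90 ± 0.13. The groups did not overlap for any of these genes, in WT or in KO, and here too the share of all genes was not counted. In KO cells the log2 differences were 6.03 ± 0.49 for Tmem63c, 3.00 ± 0.14 for Dnah12 and 2.46 ± 0.15 for Fzd4.

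**Figure D2:**
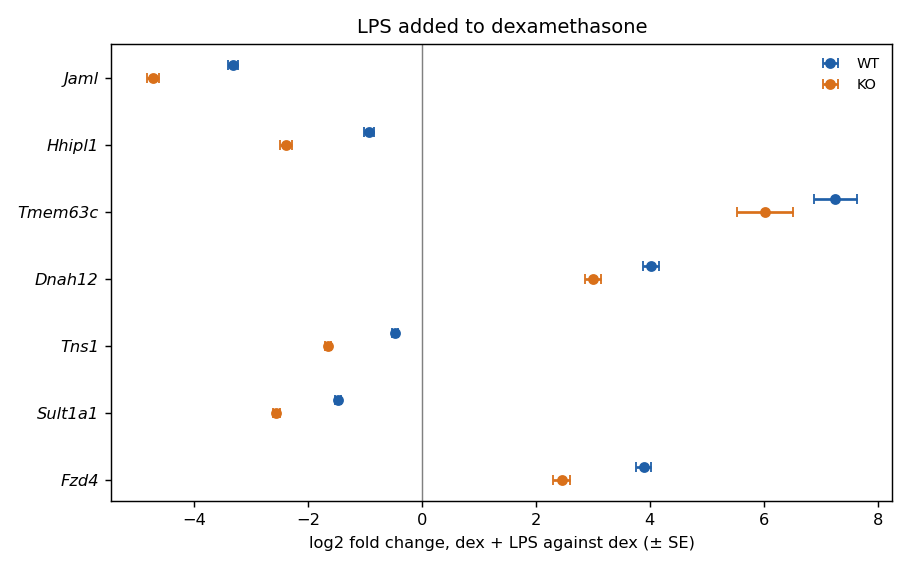
Log2 change from dexamethasone alone to dexamethasone with LPS for each of the 7 genes, with bars of 1 SE, in WT and KO cells (4 libraries a group). Jaml, Hhipl1, Tns1 and Sult1a1 lie below 0 and Tmem63c, Dnah12 and Fzd4 above 0 in both genotypes, from -4.72 for Jaml in KO to 7.26 for Tmem63c in WT.

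LPS without dexamethasone gave far lower levels of Tns1 and Sult1a1, the pair with the highest untreated levels. In WT 75.7% of all genes differed from controls and 38.3% fell. Tns1 stood at 1.32% of its control level (log2 difference -6.26 ± 0.10) and Sult1a1 differed by -6.36 ± 0.23, with no overlap of libraries. Since this pair comes nearest to the description that chose the genes through its level with LPS, its values are given without a test. Fzd4 changed by -1.43 ± 0.50 (edgeR adjusted p = 0.00948), a call that was lost without WT control replicate 4 (-0.79, adjusted p = 0.182). The call for Jaml (-2.65 ± 1.18, adjusted p = 0.0397) rests on 9 counts against 1 and was lost without WT control replicate 1 or 4 or without WT LPS replicate 2, 3 or 4 (adjusted p 0.0775 to 0.198). Dnah12 (-2.04, adjusted p = 0.0740) was called without WT control replicate 1 (-2.45, adjusted p = 0.0267) or WT LPS replicate 1 (-4.45, adjusted p = 0.0136). In KO 76.1% of all genes differed and 39.3% fell. Tns1 differed by -5.55 ± 0.09 and Sult1a1 by -5.73 ± 0.23, again without a test. Fzd4 changed by -2.13 ± 0.54 (edgeR adjusted p = 4.61e-04).

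The knockout was compared with wild type within each treatment, which asks whether the levels depend on Acod1. All 7 genes were lower in KO than in WT with dexamethasone and LPS together, at between 27.9% (Tmem63c) and 50.2% (Dnah12) of the WT level. Their libraries did not overlap, but the share of all genes without overlap was not counted, so nothing is read from this. Over all genes 56.4% differed in this comparison and 27.9% were lower. The median log2 change was -1.55 over the 7 genes and -0.0047 over all genes tested. The WT libraries with both agents were among those the genes were chosen on, so a lower KO level was favoured by that choice. Tmem63c, Dnah12 and Fzd4 reach 5 CPM only with both agents. The values of the 7 genes in this comparison, their shared sign and their median are therefore a description, given without a test. The sequencing lane also differed between these groups.

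Jaml stood at 2.95, 2.64, 3.02 and 2.91 CPM in KO cells with both agents, against 7.48 to 11.7 CPM in WT, a log2 difference of -1.68 ± 0.13. Hhipl1 stood at 4.87, 3.80, 3.35 and 4.44 CPM (-1.55 ± 0.11), below all WT libraries. For Tmem63c the KO values were 1.82, 2.15, 2.69 and 4.15 CPM (-1.84 ± 0.21), the widest spread of the 7 relative to its mean. Fzd4, at 13.3, 9.08, 12.1 and 12.6 CPM, was 30.5% of its WT level (-1.72 ± 0.11).

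Tns1 stood at 245, 215, 243 and 302 CPM in KO, 42.7% of WT (-1.23 ± 0.05). Sult1a1 stood at 22.4, 19.5, 21.4 and 25.5 CPM, 44.0% of WT (-1.18 ± 0.06). Dnah12, at 18.6, 18.7, 18.1 and 23.5 CPM, differed least (-0.99 ± 0.10). KO replicate 4 was the highest of its group for Tmem63c, Dnah12, Tns1 and Sult1a1, and it was below the lowest WT library in each.

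With sequencing lane as a term of the fit, 4834 of the 14667 genes tested in that fit had an adjusted p under 0.05. The log2 difference was then -1.54 ± 0.17 for Jaml, -1.45 ± 0.17 for Hhipl1, -1.25 ± 0.10 for Tns1, -1.23 ± 0.10 for Sult1a1 and -1.87 ± 0.35 for Fzd4. It was -2.28 ± 2.31 for Tmem63c and -0.56 ± 0.35 for Dnah12. The values of these genes in the lane fit are likewise given without a test. The lane term rests on KO dexamethasone replicate 4. In that library Jaml was 70.4 CPM against 75.7 to 81.0 in the other 3, Hhipl1 was 20.4 against 21.4 to 22.6, and Dnah12 was 1.94 against 2.33 to 2.87, while Tns1, Sult1a1, Fzd4 and Tmem63c lay within the range of the others.

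**Figure D3:**
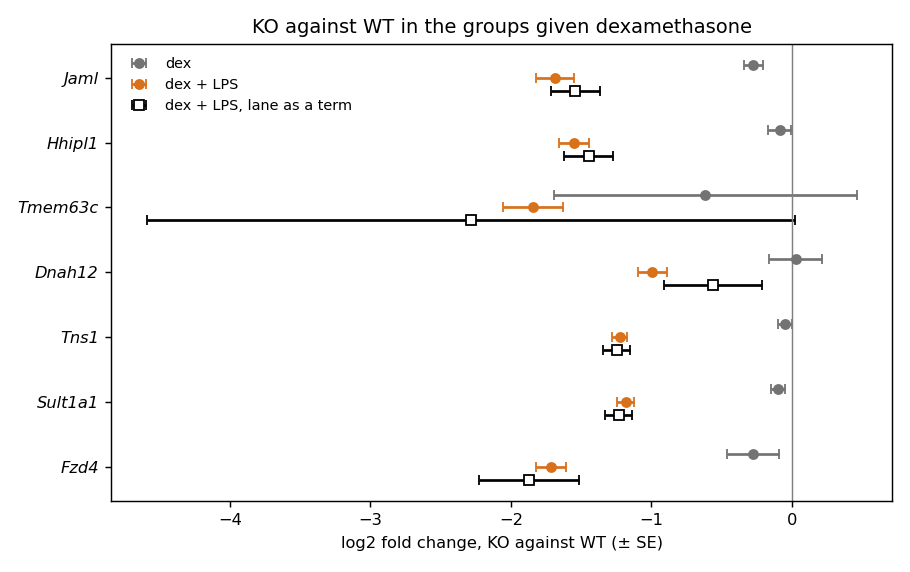
Log2 difference of KO from WT for each of the 7 genes with dexamethasone alone (grey), with dexamethasone and LPS (orange) and with the latter fitted with sequencing lane as a term (open squares), with bars of 1 SE (4 libraries a group, with the merged-lane library left out of the lane fit). All 7 lie between -1.84 and -0.99 with dexamethasone and LPS, and between -0.61 (Tmem63c) and 0.03 (Dnah12) with dexamethasone alone. With the lane term Tmem63c, Fzd4 and Dnah12 have the widest bars, and Dnah12 moves from -0.99 to -0.56.

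In controls and with LPS alone few of these genes passed the test between genotypes. In controls 0 of the 7 passed the edgeR test, where 0.541% of all genes did; 2 had an unadjusted p under 0.05, and DESeq2 called 0. Sult1a1 was lower in every KO control library (6.36, 7.46, 7.07 and 8.48 CPM against 9.08 to 9.35; log2 difference -0.31 ± 0.09, edgeR adjusted p = 0.131) and was called without KO control replicate 4 (-0.40, adjusted p = 0.0480). With dexamethasone alone 0.901% of all genes passed and 0.36% were lower. The WT libraries with dexamethasone were also among those the genes were chosen on, so a lower KO level was favoured there. The values of the 7 genes with dexamethasone alone are therefore given without a test. Jaml stood at 81.0, 76.5, 75.7 and 70.4 CPM in KO (log2 difference -0.27 ± 0.07), lower in 4 of 4 libraries. Its difference was -0.24 with the lane term and -0.24 within lane 3. Tns1 (-0.05 ± 0.05), Hhipl1 (-0.08 ± 0.08) and Sult1a1 (-0.10 ± 0.05) had small differences there. With LPS alone 1 of the 7 passed, where 10.2% of all genes did and 4.66% were higher: Tns1 stood at 3.75, 4.08, 3.78 and 3.67 CPM in KO against 1.61 to 2.67 in WT (0.82 ± 0.19, adjusted p = 0.0016). There 6 of the 7 log2 differences were positive, with a median of 1.16, at levels of few counts: Jaml had 9 counts in KO against 1 in WT (2.71 ± 1.18, unadjusted p = 0.026, edgeR adjusted p = 0.155).

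Whether the effect of dexamethasone itself differed between genotypes was tested as an interaction. These tests share libraries with the contrasts that chose the genes. With LPS present the WT part is the rise the genes were chosen for, so a negative difference was favoured in advance. The values of the 7 genes with LPS are therefore given without a test. Without LPS 0 of the 7 passed, as did 0.0% of all genes by edgeR; 617 genes, 2 of the 7 among them, had an unadjusted p under 0.05, and DESeq2 called 0 genes. With LPS present all 7 differences were negative. Over all genes 45.4% passed there, and 21.5% passed with a negative difference. Tns1 differed by -2.05 ± 0.19. Jaml differed by -4.39 ± 1.17, and by -2.81 without KO LPS replicate 1. That library holds 7 of its 9 counts in KO cells with LPS alone. Hhipl1 differed by -3.98 ± 1.61, with 0 counts with LPS in WT, so the fitted value depends on the prior count. Its difference was -3.04 ± 1.44 by DESeq2 and -3.53 without KO LPS replicate 1 or 3. Dnah12 differed by -2.16 ± 1.27, and by -4.57 without WT LPS replicate 1. Sult1a1 differed by -1.50 ± 0.69. It differed by -1.79 without KO LPS replicate 2 and by -1.57 without KO dexamethasone with LPS replicate 4. Tmem63c differed by -3.51 ± 2.36 and Fzd4 by -1.06 ± 0.81.

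To show how many genes have a like pattern, every gene was screened for a mean under 1 CPM in all 4 groups without dexamethasone and at least 5 CPM in at least 1 group with it. The screen found 36 genes, 25 of them protein-coding, and 5 of the 7 described here; Sult1a1 (9.18 CPM) and Tns1 (180.1 CPM) lay outside through their untreated level. A limit of 0.5 CPM left 26 genes and a limit of 10 CPM for the raised group left 19. Among the others were Ptx3, a secreted pattern-recognition protein (138.8 CPM in WT with both agents), Chil3, a chitinase-like protein of macrophages (64.8 CPM in WT with dexamethasone), and the receptor kinase Flt3 (15.4 CPM in WT with dexamethasone and 0.110 with both agents). Of the 36, 26 had a higher mean in WT with both agents than with dexamethasone alone and 10 the reverse, and all 36 had a lower mean in KO than in WT with both agents. These are descriptions of means, and the screen uses the same values as the choice of the genes. A high WT mean with both agents lets a gene pass, so a lower KO mean there was favoured by the screen. Nothing is read from the 36 of 36.

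**Figure D4:**
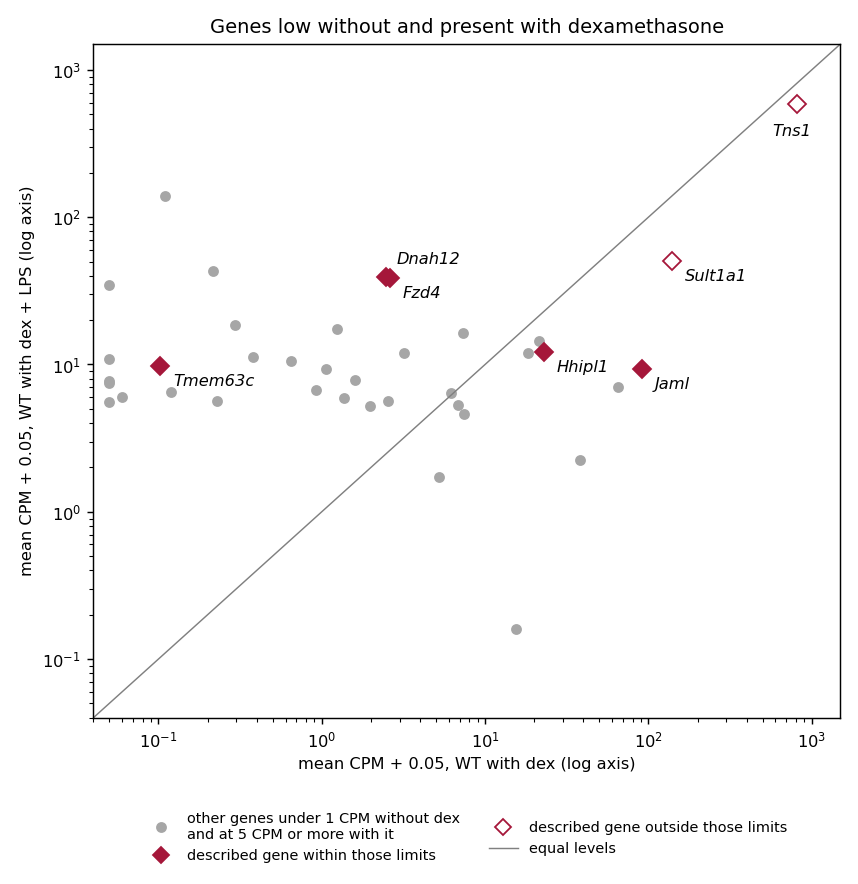
Mean level in WT cells with dexamethasone and LPS against that with dexamethasone alone, as CPM + 0.05 on log axes, for the 36 genes of the screen and the 7 genes (diamonds, open for Tns1 and Sult1a1, which lie outside the limits of the screen); the line marks equal levels. Of the 36 screened genes 26 lie above the line, Tmem63c, Dnah12 and Fzd4 among them, and 10 below it, Jaml and Hhipl1 among them.

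The genes whose levels followed each of the 7 most closely over the 32 libraries, by Pearson's r of log2(CPM + 0.5), are given as a description; the libraries form 8 groups and share the treatments that chose the genes. For Jaml these were Chil3 (r = 0.994), Klf13 (0.988) and Smurf2 (0.987), and for Hhipl1 the first 2 were Strip2 (0.993) and Jade2 (0.987). Tns1 was followed by Ldlrad3 (0.989), Zbtb16 (0.985) and Marveld1 (0.983), and Sult1a1 by Zbtb16 (0.992), Marveld1 (0.982) and Mertk (0.979), so these genes had 2 of their closest genes in common. Dnah12 and Fzd4 were both followed by Myo10 (0.979 and 0.968) and Mctp2 (0.966 and 0.966). The closest to Tmem63c were Gramd4 (0.990), Prickle2 (0.986) and Eci2 (0.986). Within the 16 libraries with dexamethasone 0 of the 3 closest genes was the same for any of the 7. Between the 7 genes themselves r was highest for Dnah12 and Fzd4 (0.980), Jaml and Hhipl1 (0.968) and Tns1 and Sult1a1 (0.966), and lowest for Jaml and Tmem63c (0.181), among 21 pairs.

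Related genes and partners of the 7, a list of 106 symbols of which 57 could be tested, were read in the same contrasts. In WT 31 of the 57 (54.4%, against 49.4% of all genes) differed with dexamethasone alone, 16 higher and 15 lower. With both agents against LPS alone 47 differed (82.5%, against 69.2%), 17 higher and 30 lower. In KO cells 27 (47.4%, against 48.5%) and 21 (36.8%, against 38.1%) differed, so apart from WT with LPS the shares lie near those of all genes. With both agents 25 of the 57 were higher in KO than in WT and 10 lower (61.4% in all, against 56.4%).

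Of 7 tested relatives of Jaml, Mpzl3, an immunoglobulin-superfamily protein whose gene lies 1747 bases from Jaml, rose from 0.167 to 0.888 CPM with dexamethasone (log2 change 2.37 ± 0.40) and from 0.840 to 3.81 CPM on LPS (2.17 ± 0.24). With LPS present 6 of the 7 fell, among them the adhesion protein Clmp from 209.9 CPM to 28.8 (-2.86 ± 0.05) and Mpzl1 from 16.9 to 3.27 (-2.38 ± 0.13). The ligand Cxadr was at or below 0.172 CPM in every group mean and could not be tested. Around Hhipl1, the hedgehog receptor Ptch1 rose with dexamethasone alone, from 7.03 to 9.53 CPM (0.43 ± 0.10), and fell from 38.1 to 5.38 CPM with both agents against LPS alone (-2.82 ± 0.09). The co-receptor Boc likewise rose from 0.0652 to 0.286 CPM (2.01 ± 0.65) and fell from 5.07 to 0.506 (-3.30 ± 0.26). The transcription factor Gli1, at 0.0130 CPM with LPS and 0.127 with both agents, rose in the second contrast (2.76 ± 1.09, edgeR adjusted p = 0.0229). The other TMEM63 proteins did not rise: Tmem63a changed by -0.16 and -0.17 and Tmem63b by 0.02 (adjusted p = 0.798) and -1.02 in these contrasts.

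Among dynein chains Dnah2 rose with dexamethasone alone, from 0.0763 to 0.843 CPM (3.36 ± 0.50), and fell with LPS present (-1.85 ± 0.32), the opposite balance from Dnah12. Of the tensins, Tns3 was abundant and fell, from 504 to 415 CPM (-0.28 ± 0.04) and from 417 to 294 (-0.50 ± 0.04). In the list around Sult1a1, the PAPS synthase Papss2 fell with dexamethasone alone, from 4.67 to 2.86 CPM (-0.71 ± 0.17), and rose with LPS present, from 4.19 to 12.0 CPM (1.52 ± 0.15). Papss1 changed by 0.26 ± 0.05 with LPS present. For Fzd4 the norrin gene Ndp was at 0, and the co-receptor Lrp5 rose from 9.19 to 15.4 CPM with both agents against LPS (0.75 ± 0.08). Other frizzleds rose with dexamethasone alone and fell with LPS present: Fzd1 went from 0.413 to 1.62 CPM (1.98 ± 0.30) and from 19.7 to 2.71 (-2.86 ± 0.14), and Fzd7 from 26.7 to 34.9 CPM (0.38 ± 0.06) and from 49.6 to 6.68 (-2.89 ± 0.08).

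**Figure D5:**
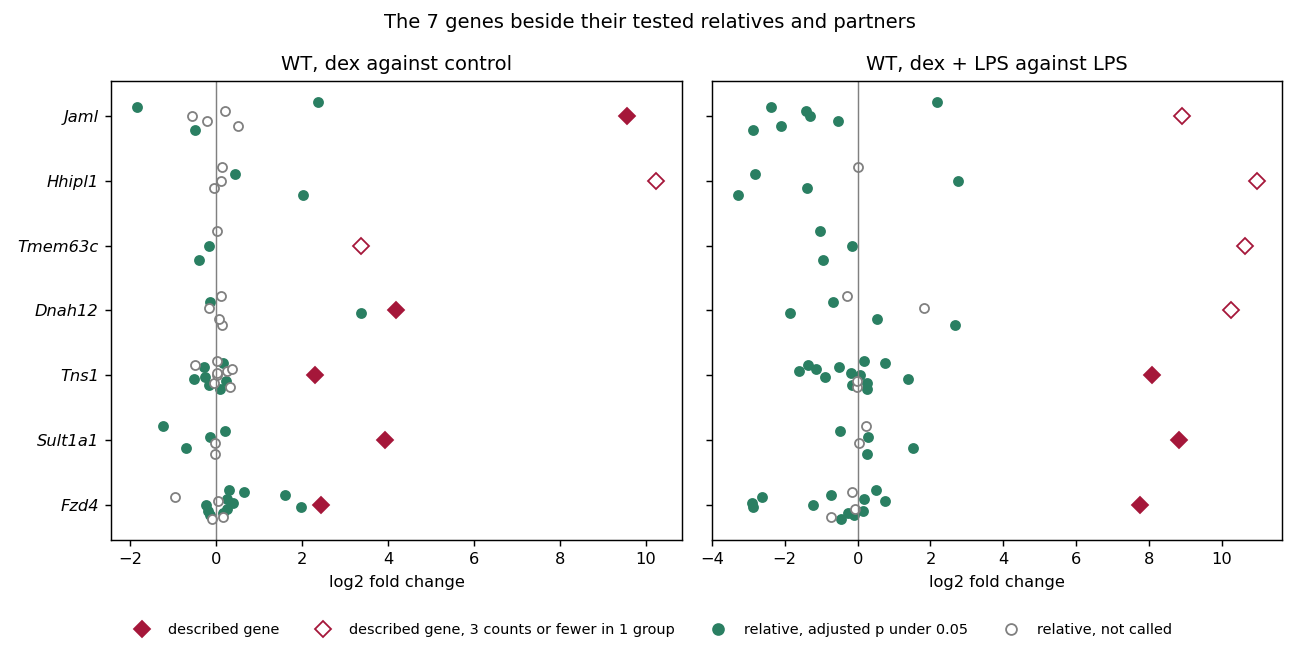
Log2 change with dexamethasone in WT cells for the 7 genes (diamonds, open where a group held 3 counts or fewer, so that the fitted value depends on the prior count) and their tested relatives and partners (circles, filled where the adjusted p was under 0.05), without LPS on the left and with LPS on the right. The position of the 7 genes far to the right was fixed by their choice on these contrasts; their tested relatives spread on both sides of 0, with 16 of 57 higher without LPS and 17 of 57 with it.

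A list of 18 known glucocorticoid targets was compared in the same way. With dexamethasone alone 13 rose and 1 fell in WT (77.8% in all, against 49.4% of all genes). With LPS present 11 rose and 5 fell (88.9%, against 69.2%). With both agents 10 of the 18 were lower in KO than in WT and 5 higher (83.3%, against 56.4%). The genes named next are both among those lower in KO. Fkbp5, a co-chaperone of the receptor, stood at 29.9, 878, 11.4 and 681 CPM in WT controls, dexamethasone, LPS and both, and at 262 CPM in KO with both (-1.38 ± 0.05). Zbtb16, a zinc-finger transcription factor, stood at 7.63, 64.5, 0.0653 and 33.4 CPM and differed by -1.41 ± 0.08 between KO and WT with both. With both agents the receptor gene Nr3c1 itself had a mean of 209 ± 2.41 CPM in wild-type and 163 ± 1.43 in knockout cells (SD, n = 4 each), and with dexamethasone alone of 110.3 ± 1.78 and 108 ± 3.13.

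The genes within 100 kb of the 7 numbered 73, and 30 were tested. In WT with dexamethasone alone 14 of the 30 rose and 5 fell, where 21.2% of all genes rose and 28.2% fell. With LPS present 17 rose and 4 fell, where 34.6% of all genes rose and 34.5% fell. The median log2 changes were 0.22 and 0.32, against -0.018 and 0.0071 over all genes. The counts lean toward a rise, which the low-count filter favoured in part, so nothing is read from them. Scn2b, at 0 in every group without dexamethasone, could be tested only through its level with the drug. The same holds for 4930478K11Rik and Cyp46a1, whose highest group means without the drug were 0.0267 and 0.100 CPM. The tested neighbour 4930478K11Rik shares exon bases with Hhipl1. Cyp46a1, which lies 3512 bases from Hhipl1 and was picked out after its values were seen, went from 0.100 to 1.08 CPM with dexamethasone alone. The nearest gene to Fzd4, Tmem135, changed by -0.16 and 0.84.

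Some transcripts listed as markers of other cell types changed between groups. Whether they came from such cells, and their part in these results, was not tested. In this bulk RNA, more cells with a transcript and more transcript per cell cannot be told apart. The summed level of 10 neutrophil markers was 14.01 to 18.5 CPM in WT controls and 93.5 to 98.9 with dexamethasone, nearly all of it Mmp8, with Ngp, Ltf, Ly6g and Retnlg at 0. That of 6 dendritic cell markers was 0.953 to 1.45 CPM and 16.1 to 17.3, most of it Flt3, with Ccr7 at 0. For 7 markers of ciliated epithelium, the cells in which Dnah12 has its known role, the range over all libraries was 2.61 to 5.26 CPM, and Epcam was at 0 in WT cells with both agents, where Dnah12 was at 39.3 CPM. The 7 fibroblast markers summed to 0.601 to 1.28 CPM in WT controls, 0.0446 to 1.87 with dexamethasone alone and 16.3 to 20.2 with LPS alone. With both agents the sum in WT was 25.2 to 28.9 CPM, most of it Pdgfrb, with Pdgfra and Lum at 0. Over all libraries the summed markers ranged from 0.170 to 107 CPM for B cells, 0.323 to 5.25 for T and NK cells, 0.202 to 25.8 for mast cells and basophils, 2.92 to 55.0 for endothelium, 14.5 to 261 for megakaryocytes and platelets, and 0.0501 to 0.852 for erythroid cells.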

How the data were processed

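RNA-seq libraries from 32 macrophage cultures were analysed as the authors' deposited table of counts per gene. The counts were made with featureCounts 2.0.0 on GENCODE vM32, per the file headers; STAR, GRCm38 and mm10 are named in the submitters' processing notes, and vM32 is annotated on a later build than these, so the coordinates printed are those of the deposited table or, for promoter sequences, of RefSeq on GRCm38.p6. Gene symbols were matched for 52029 of 56953 identifiers. The 7 genes, the lists of relatives, glucocorticoid targets and cell type markers, and the tests were chosen with earlier results of these data known. Named genes were all 7 members, for each the 3 genes most alike, and members of the lists; 1 of the genes most alike is not reported here.

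Counts were fitted with edgeR 4.0.16 in R 4.3.3 (quasi-likelihood, TMM scaling, low counts removed with filterByExpr at a minimum count of 10, 8 group means, 24 residual degrees of freedom), and p-values were adjusted by Benjamini-Hochberg over all 14427 genes tested. A call is an adjusted p under 0.05. The common biological coefficient of variation was 4.36%. Errors of log2 changes are standard errors derived from the F statistic. Folds come from summed counts over summed library sizes, with an exact 95% counting interval where a group held 1 to 3 counts and a bound at 3 counts over the group where it held 0. The count model was tested on simulated data. Alternatives were other scalings, no filter, DESeq2 1.42.0, a replicate block, a lane term, the compared groups alone, a threshold of 0.01 and each library left out. Between replicates of a group the counts differed by 2.05 to 18.4 times sampling noise (chi-square per degree of freedom over 48 pairs).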

Additional observations from a re-analysis of the deposited data

Results flagged for a closer look

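Among 52 sets of 4 libraries (a gene in a group), 6 held a library far from the other 3, and chance gives about 1 in 20. In 5 of them the high library held between 1 and 7 counts: Jaml at 0.0487 CPM in WT LPS replicate 1 and at 0.365 CPM in KO LPS replicate 1, Hhipl1 at 0.0534 CPM in WT control replicate 4, Tmem63c at 0.0504 CPM in KO LPS replicate 2, and Dnah12 at 0.0973 CPM in WT LPS replicate 1. The other was a well-counted value, Dnah12 at 23.5 CPM in KO dexamethasone with LPS replicate 4, against 18.1 to 18.7 CPM in the other 3.

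The effect of dexamethasone in the presence of LPS was smaller in KO than in WT for Jaml (log2 difference -4.39 ± 1.17), Hhipl1 (-3.98 ± 1.61) and Tns1 (-2.05 ± 0.19). This difference is built from the contrasts that chose the genes, which favours a negative sign, so it is given without a test. For Jaml it was -2.81 without KO LPS replicate 1. For Hhipl1 it rests on 0 counts in WT with LPS alone, and DESeq2 gave -3.04 ± 1.44. Each KO library with LPS was sequenced in lane 2 and each WT library in lane 3. A lane effect equal in both treatments cancels in this difference. One that differs between treatments cannot be told apart from genotype. Over all genes 44.5% passed this test with the lane term, against 45.4% without it.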

How the results depend on the processing

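No call of a member was reversed in any alternative run. Of the counts of members or relatives that passed, 230 alternatives gave the same result and 13 moved. In WT cells the number of members lower with LPS than in controls was 4, and 2 in the fit on the compared groups alone, where Jaml and Fzd4 were not among the genes tested; it ranged from 2 to 5 with a library left out. In controls the number of members that differed between genotypes ranged from 0 to 1 with a library left out. With dexamethasone alone no such count is given, since the choice of the genes favoured a lower KO level. For the interaction with LPS present no count of members that passed is given, since the choice of the genes favoured its sign. Counts over all genes moved most between genotypes. With LPS alone 1468 became 829 at 0.01, 667 with the compared groups alone and 112 with the lane term; with both agents 8137 became 4834 with the lane term. In controls 78 ranged from 38 to 137, and with dexamethasone alone 130 ranged from 62 to 401. The interaction without LPS gave 0 genes, and 6 with no filter, 1 with the compared groups alone and 3 without WT control replicate 4. Leaving out all scaling shifted the median log2 change of all genes by -0.26 for LPS against control in WT and by -0.19 for LPS added to dexamethasone. The labels do not say that a replicate number marks a shared source. Correlations of same-numbered libraries ran from -0.029 to 0.060 (median 0.0076, against -0.0025 for other numbers), all under 0.1, though 18 of 32 libraries correlated best with their own number, where an equal share over the numbers would be 8. With the replicate block the 7 members were again lower in KO with both agents, and genes called there became 8149. Depth limits statements on single counts.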
